A study of Mus musculus with 12 samples.

Results

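The mRNAs of 10 genes, Tanc2, Zbed6, Ubn1, Prrc2c, Srrm2, Nol8, Rest, Map1b, Galnt2 and Garem1, are described here in the testes of newborn mice, out of 18193 genes that have a probe set of their own on the array. They were chosen on the ratio of polysome to non-translating signal of their brightest probe set, which was high at both ages, so that ratio is given as a description and is not tested. The 10 genes have 31 probe sets in all, each a set of short probes that gives 1 signal, and 21 of these passed a filter on dim signal. The further probe sets of a gene were not what the genes were known for, but they come from the same arrays and the same contrast, and they are not tested either.

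Testes came from CD-1 mice, an outbred stock with no genetic change, at 1 and 4 days post partum (dpp). Cytoplasmic extracts made in the presence of cycloheximide, which holds ribosomes on mRNA, were spread over a sucrose gradient by centrifugation. RNA of fractions 1 to 3, from the light top of the gradient, forms the non-translating pool, and RNA of fractions 7 to 13 the polysome pool, at each age. Each of these 4 groups has 3 arrays, called biological replicates by the labels. The animals behind a replicate are not given, and a p-value here reflects only how much these samples vary. Whole testes were used, so the RNA of germ cells, Sertoli cells, Leydig cells and other somatic cells is mixed: of the fixed markers, 6 of 6 Sertoli, 6 of 6 germ cell and 4 of 4 Leydig cell genes lay above the filter.

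An mRNA that is read by many ribosomes at once sediments far down a sucrose gradient, while an mRNA bound by few or none stays near the top. A long reading frame has room for more ribosomes, so position in the gradient depends on the length of the message as well as on how often translation starts. In the newborn testis the germ cells pass from a resting state to spermatogonia while Sertoli cells divide around them. The working name of the group calls the mRNAs long, and mRNA and protein lengths were not used here, so this was not checked.

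The group is mixed in function. Zbed6 is a transcriptional repressor derived from a DNA transposon and known for repression of Igf2, Rest represses neuronal genes outside the nervous system, and Ubn1 belongs to the HIRA complex, which deposits the histone variant H3.3. Srrm2 is a serine- and arginine-rich protein of nuclear speckles that takes part in splicing, Nol8 is a nucleolar protein needed to make ribosomes, and Prrc2c is a proline-rich cytoplasmic protein that associates with stress granules. Tanc2 is a scaffold protein of synapses and Map1b binds microtubules. Galnt2 is a Golgi enzyme that starts O-linked glycosylation, and Garem1 is an adaptor that carries growth factor signals to the MAP kinase pathway.

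The first bases of an mRNA bear on its place in the gradient, since mRNAs that begin with C and a run of pyrimidines, the 5′ terminal oligopyrimidine (TOP) mRNAs, are controlled as a class by mTORC1. The annotated starts of 7 of the genes, 8 starts in all, are shown for this reason from RefSeq (GRCm38.p6), with the 20 bases before the start in lower case and the first 10 transcribed bases in capitals. In order, they lie at chr11:105589966-105589995 (plus strand), chr1:133660876-133660905 (minus), chr16:5050037-5050066 (plus), chr1:162740547-162740576 (minus), chr17:23803167-23803196 and chr17:23803205-23803234 (plus), chr13:49653058-49653087 (plus) and chr13:99516593-99516622 (minus).
Tanc2: ccccgttcccatccccctcgCGCTCACCTC
Zbed6: gactgtttcggacccccggaGGGGGAACTG
Ubn1: cgtcgaagcccagagactccAAGCTCCCGC
Prrc2c: gccttacgtacgcaacgtcaTGACGTAGCA
Srrm2, first start: gtgctgacgcactaggtcgtGCTGACGCGC
Srrm2, second start: ccaggcggggtgcgagtggcGCAGTCGAAG
Nol8: tattttggttccgcttcttcACTTCCGCCT
Map1b: gcgtgcgccgggaggaggggGGACGCAGGG

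A C followed by at least 4 pyrimidines (C or T) on the transcribed strand stood at 0 of these 8 starts, against 2.51% of the 32851 annotated starts in the table. The start of Tanc2 was the only 1 of the 8 with C as its first base, and its second base is G. An annotated start can differ from the one used in the testis, and 8 starts are too few to compare with other genes.

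Among all 27022 probe sets that passed the filter, the brightest probe set of Tanc2 ranked 9th by the ratio at 1 dpp and 15th at 4 dpp, and that of Zbed6 20th and 21st. The lowest ranks among the 10 were 311th at 1 dpp, for Nol8, and 164th at 4 dpp, for Galnt2. A total of 26 genes had a brightest probe set with a ratio of at least 2 on the log2 scale at both ages, and the 10 are among these.

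Zbed6 signal (1455998_at) on the 1 dpp non-translating arrays was 42.9, 54.0 and 56.6 for replicates 1, 2 and 3, and on the 1 dpp polysome arrays 504.6, 764.4 and 263.2. At 4 dpp it was 43.0, 33.6 and 27.1 in the non-translating pools and 180.9, 775.6 and 140.5 on polysomes. The pools did not overlap at either age, and the polysome arrays differed among themselves far more than the non-translating ones, with replicate 2 highest at both ages. On the scale of log2(signal + 1), which all ratios here use, polysome over non-translating was 3.17 ± 0.56 (SE, n = 3), or 9.02-fold, at 1 dpp and 2.96 ± 0.56, or 7.76-fold, at 4 dpp. The second Zbed6 probe set was below the filter on average.

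Zbed6 lies inside the span of another gene, Zc3h11a, and 4 more probe sets are annotated to both. Of these, 3 resembled the Zbed6 probe set, with ratios of 3.19 ± 0.50, 2.75 ± 0.50 and 1.93 ± 0.27 at 1 dpp and 2.98 ± 0.50, 2.09 ± 0.50 and 1.58 ± 0.27 at 4 dpp (SE, n = 3). The brightest of the 4, with a mean log2 signal of 11.1, had 0.42 ± 0.18 and −0.01 ± 0.18. The 5 probe sets above the filter at this locus thus had ratios from 0.42 to 3.19 at 1 dpp and from −0.01 to 2.98 at 4 dpp, and the annotation used does not say which transcript each one detects.

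Rest (1425565_at) had signals of 186.6, 136.0 and 137.0 in the non-translating pools and 993.6, 1333 and 608.4 on polysomes at 1 dpp. At 4 dpp they were 165.5, 72.6 and 84.7 against 283.2, 1411 and 482.0. All polysome arrays lay above all non-translating arrays of their age, and the ratios were 2.61 ± 0.53 (6.11-fold) and 2.51 ± 0.53 (5.69-fold). A second Rest probe set, 1428227_at, came from another source sequence. It was almost as bright, with a mean log2 signal of 8.01 against 8.24, and showed no such separation. Its signals were 121.9, 333.2 and 209.6 against 105.5, 120.0 and 347.1 at 1 dpp, and 303.6, 378.6 and 366.2 against 431.8, 189.0 and 644.6 at 4 dpp, so the pools overlapped at both ages. Its ratios were −0.32 ± 0.53 and 0.11 ± 0.53.

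Ubn1 (1438401_at) had 176.2, 129.8 and 127.9 in the non-translating pools and 779.0, 1119 and 593.6 on polysomes at 1 dpp. At 4 dpp it had 113.0, 62.9 and 73.5 against 336.4, 1041 and 438.8. The pools were apart at both ages, with ratios of 2.48 ± 0.41 (5.58-fold) and 2.72 ± 0.41 (6.58-fold). The other Ubn1 probe set above the filter, 1433780_at, came from another source sequence. It had a mean log2 signal of 6.80, overlapping pools at both ages, and ratios of −0.08 ± 0.40 and 0.13 ± 0.40.

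Srrm2 is the brightest of the 10. Its main probe set, 1438688_at, had 898.9, 423.3 and 1230 against 4439, 6749 and 2852 at 1 dpp, and 828.0, 365.7 and 615.0 against 2622, 7817 and 2438 at 4 dpp. The ratios were 2.50 ± 0.52 (5.67-fold) and 2.69 ± 0.52 (6.44-fold). Both further Srrm2 probe sets, neither from the source sequence of the main one, lay on the other side of 0. The probe set 1437638_at had 251.3, 160.0 and 270.1 in the non-translating pools against 75.1, 115.0 and 54.3 on polysomes at 1 dpp, with no overlap and a ratio of −1.50 ± 0.66. At 4 dpp it had 331.7, 130.0 and 80.2 against 157.7, 71.9 and 20.8, which overlap, and a ratio of −1.27 ± 0.66. The probe set 1427902_at had −0.15 ± 0.36 at 1 dpp and −0.98 ± 0.36 at 4 dpp, where its pools did not overlap.

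Nol8 has 3 probe sets above the filter that the annotation credits to 1 and the same source sequence. The brightest, 1428951_at, had 54.7, 43.1 and 59.7 against 215.8, 276.2 and 194.6 at 1 dpp and 47.8, 44.7 and 42.8 against 165.5, 609.1 and 196.0 at 4 dpp, with ratios of 2.10 ± 0.40 (4.29-fold) and 2.56 ± 0.40 (5.90-fold). The other two had overlapping pools at both ages. Their ratios were −0.10 ± 0.37 and −0.29 ± 0.37 for 1428950_s_at, whose suffix marks probes that can match more than 1 transcript family, and −0.42 ± 0.48 and 0.46 ± 0.48 for 1452974_at.

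Prrc2c (1429433_at) had 448.6, 310.5 and 597.7 against 2182, 3237 and 1154 at 1 dpp, and 574.8, 236.6 and 258.9 against 1656, 4107 and 1130 at 4 dpp. The ratios were 2.20 ± 0.52 (4.60-fold) and 2.59 ± 0.52 (6.01-fold). Of all further probe sets of the 10 genes, the one closest to its brightest partner was Prrc2c 1429432_at, which shares its source sequence. It was dimmer, from 13.8 to 29.95 in the non-translating pools and from 33.9 to 634.9 on polysomes, and its ratios were 2.51 ± 0.94 and 2.73 ± 0.94. Prrc2c 1438663_at, from another source sequence, had 250.1, 309.8 and 259.2 against 74.2, 170.8 and 112.0 at 1 dpp, with no overlap in the opposite direction. Its ratios were −1.27 ± 0.40 and −0.62 ± 0.40, and at 4 dpp the pools overlapped.

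Tanc2 (1436513_at) had the highest ratio of the 10 at both ages. Its non-translating signals were 38.6, 37.0 and 36.3 at 1 dpp and 30.9, 33.8 and 30.3 at 4 dpp, and its polysome signals 394.7, 531.7 and 314.3, and 186.9, 556.2 and 179.6. The ratios were 3.40 ± 0.38 (10.6-fold) and 3.03 ± 0.38 (8.16-fold). The non-translating arrays differed little, while 4 dpp polysome replicate 2 stood well above the other two polysome arrays of its group. A second probe set of similar mean level, 1435078_at, from another source sequence, had 0.44 ± 0.37 and 0.87 ± 0.37, with overlapping pools.

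Map1b (1450397_at) had 30.6, 33.8 and 46.0 against 229.0, 412.9 and 167.4 at 1 dpp, and 25.01, 42.5 and 38.2 against 129.4, 443.0 and 133.3 at 4 dpp. The pools did not overlap, and the ratios were 2.76 ± 0.47 (6.77-fold) and 2.48 ± 0.47 (5.60-fold). Its further probe sets, from the same source sequence, were below the filter. Of 4 neuronal markers fixed as a list for this gene and Tanc2, Tubb3 and Stmn2 lay above the filter and Snap25 and Syn1 below it. The log2 of the summed signal of these 4 ran from 7.00 to 7.44 and 7.39 to 8.39 in the non-translating and polysome pools at 1 dpp. At 4 dpp it ran from 7.08 to 7.89 and 6.66 to 8.62. Tubb3, the brightest of them (mean log2 signal 7.11), weighs most in this sum. The part of neuronal RNA in the result was not tested.

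Galnt2 (1426756_at) had 100.01, 82.1 and 113.7 against 686.4, 1099 and 726.8 at 1 dpp, and 39.7, 75.9 and 68.9 against 219.4, 402.2 and 253.8 at 4 dpp. The ratios were 3.05 ± 0.33 (8.30-fold) and 2.23 ± 0.33 (4.69-fold). A second probe set from the same source sequence and with the same mean log2 signal to within 0.1, 1452182_at, had 0.84 ± 0.55 at 1 dpp, with the pools apart, and 0.17 ± 0.55 at 4 dpp, with overlap. The third, 1425610_s_at, from another source sequence, had 0.80 ± 0.27 and 0.52 ± 0.27. All 3 Galnt2 probe sets had a ratio above 0 at both ages, but of very different size.

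Garem1 (1436827_at) had 74.0, 50.7 and 43.5 against 426.9, 627.4 and 305.0 at 1 dpp, and 51.1, 37.3 and 31.2 against 154.6, 516.2 and 129.7 at 4 dpp. The ratios were 2.97 ± 0.47 (7.81-fold) and 2.45 ± 0.47 (5.47-fold), and the pools did not overlap. Its other probe set was below the filter.

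**Figure D1:**
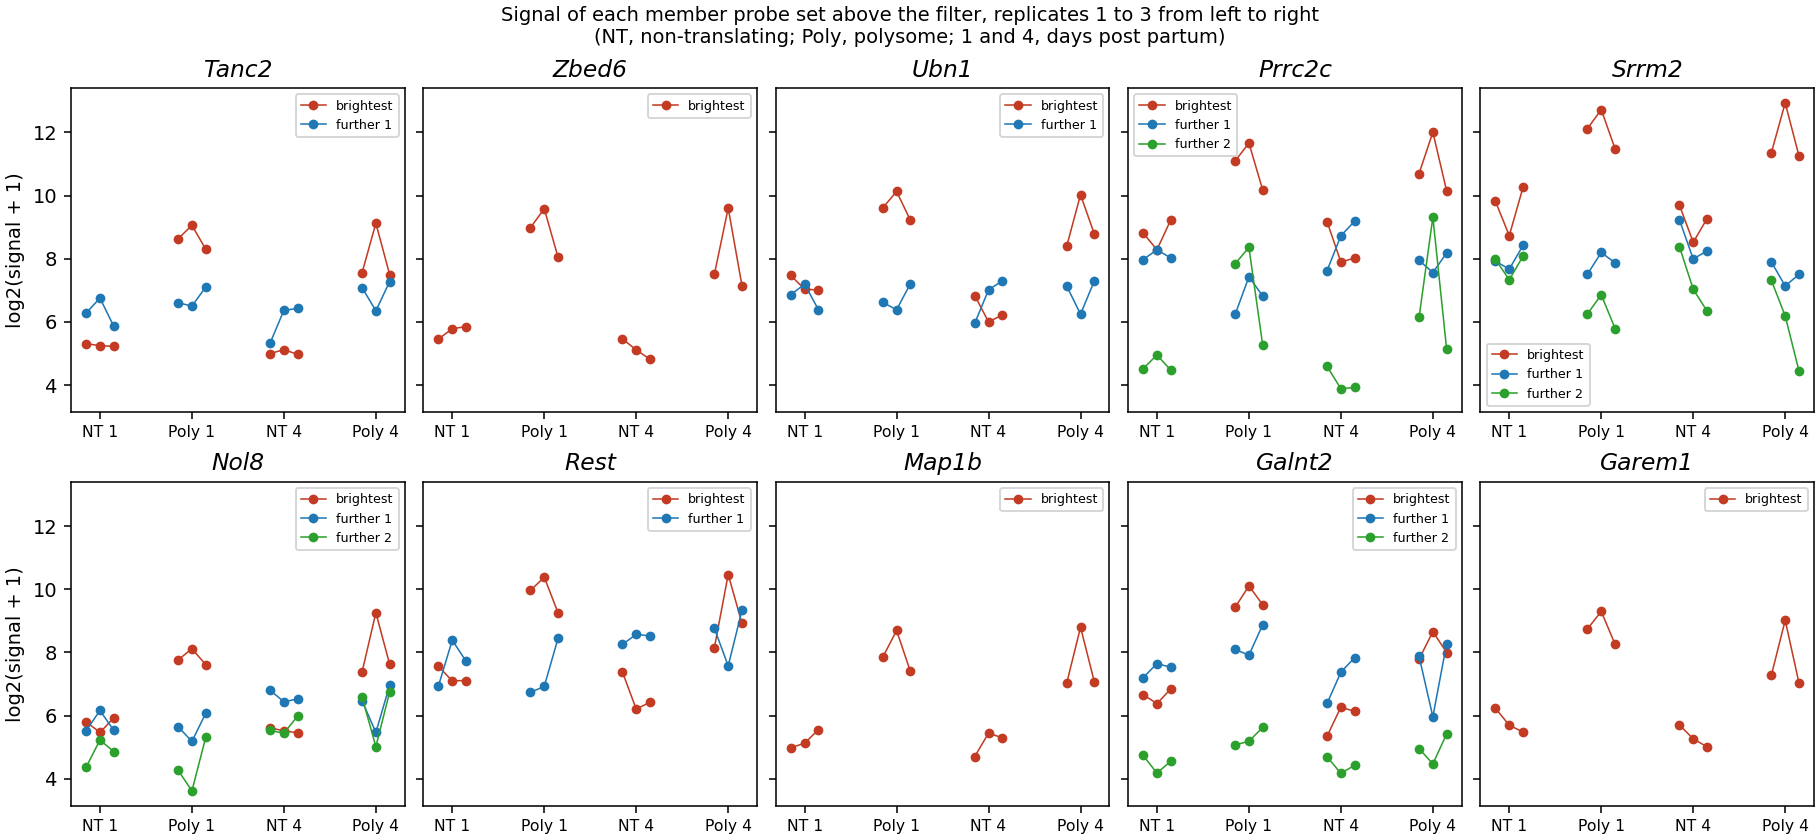
Signal as log2(signal + 1), on the vertical axis, of the 21 probe sets above the filter on the 12 arrays, 1 panel per gene, with replicates 1 to 3 of each pool joined by a line and probe sets in order of mean brightness. In the brightest probe sets (red) every polysome array lies above every non-translating array of its age and replicate 2 is the highest polysome array, while most further probe sets (blue, green) overlap between pools.

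Taking the 10 brightest probe sets as a group, the ratio had a median of 2.68 at 1 dpp (from 2.10 to 3.40) and of 2.57 at 4 dpp (from 2.23 to 3.03). These values chose the genes. Over all probe sets tested the median was 0.01 and 0.02, a ratio of at least 1 was found for 10.1% at 1 dpp and 10.5% at 4 dpp, and the polysome arrays lay above the non-translating arrays without overlap for 22.8% and 15.7%. All 10 met both conditions at both ages. The size of the ratio is fixed by their choice, and the separation of the arrays rests on the same values. The 11 further probe sets above the filter had a median of −0.10 at 1 dpp (from −1.50 to 2.51) and of 0.13 at 4 dpp (from −1.27 to 2.73). Among them 1 of 11 reached a ratio of 1 at each age, and polysome arrays lay wholly above for 3 at 1 dpp and 1 at 4 dpp, and wholly below for 2 and 1. The 10 probe sets below the filter ran from −0.62 to 0.35 at 1 dpp and from −0.22 to 0.38 at 4 dpp, near the low end of the signal scale, where a ratio cannot be read.

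**Figure D2:**
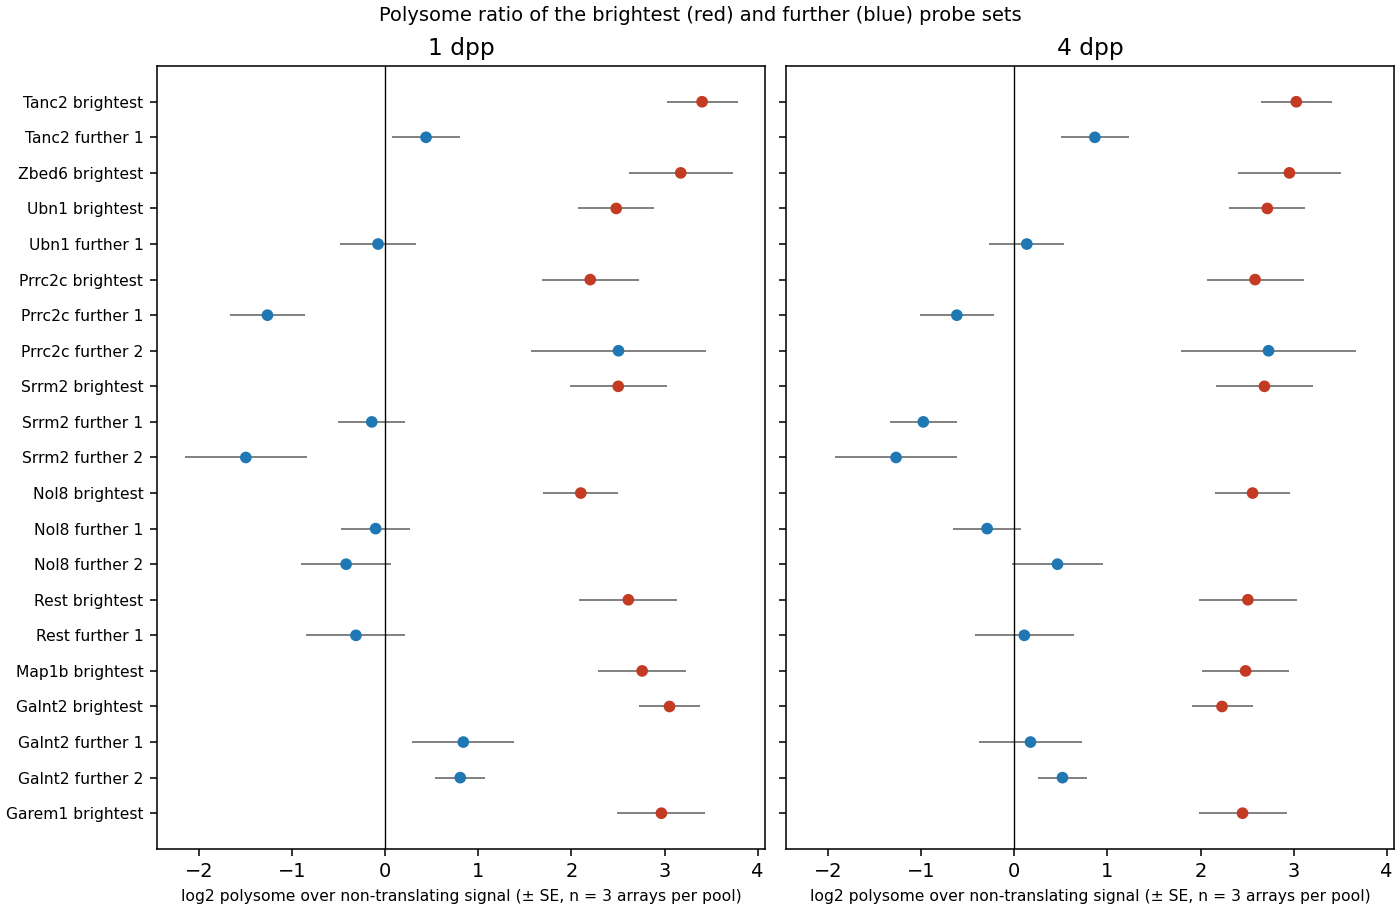
Ratio of polysome to non-translating signal (log2, ± SE, n = 3 arrays per pool) of each member probe set above the filter at 1 dpp (left) and 4 dpp (right). The brightest probe sets (red) lie between 2.10 and 3.40, and of the 11 further ones (blue) only 1, of Prrc2c, has a ratio over 1.

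Of the 7 genes with a further probe set above the filter, 5 had at least 1 with a ratio of the opposite sign at 1 dpp (Ubn1, Prrc2c, Srrm2, Nol8 and Rest) and 3 at 4 dpp (Prrc2c, Srrm2 and Nol8). Tanc2 and Galnt2 had the same sign throughout. On the array as a whole, opposite signs are common: among 5954 genes with more than 1 probe set above the filter, 45.7% had such a disagreement at 1 dpp and 51.7% at 4 dpp. The size of the gap was different. The brightest probe set differed from the further one by over 1 (log2) for 10 of the 11 further probe sets at each age, against 24.7% and 24.2% of 9780 further probe sets of all genes. Among the 21 genes with a further probe set and a brightest ratio of at least 2 at both ages, which include these 7, the share was 76.3% of 38 at 1 dpp and 71.1% at 4 dpp. A gap of this kind is built into a choice by the brightest probe set, and it is given as a description. Over all genes, further probe sets of the same source sequence had the opposite sign in 32.4% of 2395 cases at 1 dpp and those of another source in 36.8% of 7385, and at 4 dpp in 38.4% and 42.0%. Counted by gene, the shares were 34.8% and 46.1% at 1 dpp and 41.3% and 51.2% at 4 dpp, and the difference was not tested.

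The 10 brightest probe sets followed each other from array to array. Pearson's r between pairs of them over the 12 arrays had a median of 0.953 (from 0.837 to 0.991 over 45 pairs), which contains the pool difference that chose them. With each group's mean taken out, the median was 0.821 and the lowest 0.284. No such value for other probe sets is given here, so this cannot be called particular to the 10. Between a brightest probe set and the further ones of the same gene, r had a median of −0.22, was below 0 for 7 of 11, and ran from −0.69 to 0.92. These are descriptions over shared arrays. By the rule fixed for likeness, the 5 probe sets of other genes closest to the mean profile of the 10 were those of Dab2ip (r = 0.993), Secisbp2l (0.993), Kmt2e (0.991), 2610507B11Rik (0.986) and Tcf4 (0.985), over 12 arrays.

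Within the polysome groups, replicate 2 was the highest array for all 10 brightest probe sets at both ages. It lay above the mean of replicates 1 and 3 by a median of 0.79 (log2) at 1 dpp and 1.69 at 4 dpp. Of the 11 further probe sets, replicate 2 was highest for 4 at 1 dpp and for 1 at 4 dpp, and lowest for 5 and 9. Over all probe sets tested the median difference was −0.06 and −0.15, and replicate 2 was highest for 29.6% and 35.04%. Among all probe sets with a ratio of at least 2 it was highest for 80.4% of 377 at 1 dpp and for 53.7% of 294 at 4 dpp.

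The level of the spiked poly-A control RNAs moved with this order. In replicates 1, 2 and 3 of the polysome pool, the spikes averaged 11.5, 11.9 and 9.71 (log2) at 1 dpp and 8.41, 12.1 and 7.88 at 4 dpp. All non-translating arrays had between 10.9 and 12.4. The mean deviation of the 10 probe sets from their own average was 1.59, 2.15 and 1.10 on the former and 0.49, 2.16 and 0.52 on the latter. With the 3 arrays of low spike level left out, the median ratio was 2.98 at 1 dpp and 3.71 at 4 dpp, where 1 polysome array remains, and with only the other two 4 dpp polysome arrays it was 2.02. The ratio of each of the 10, which chose the genes, stayed at or above 1.83 in all of these. The 3′ minus 5′ log2 signal of the Actb and Gapdh control probe sets, which is large where RNA is broken or copied short, at 1 dpp came to 3.71 ± 0.70 for polysomes and 3.23 ± 0.44 for the non-translating pool (SD, n = 3, exact two-sided permutation p = 0.6). At 4 dpp it was 1.96 ± 0.26 and 3.32 ± 1.60 (exact permutation p = 0.1, the smallest that 3 against 3 arrays allow). The part of spike level and RNA quality in the ratios was not tested.

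**Figure D3:**
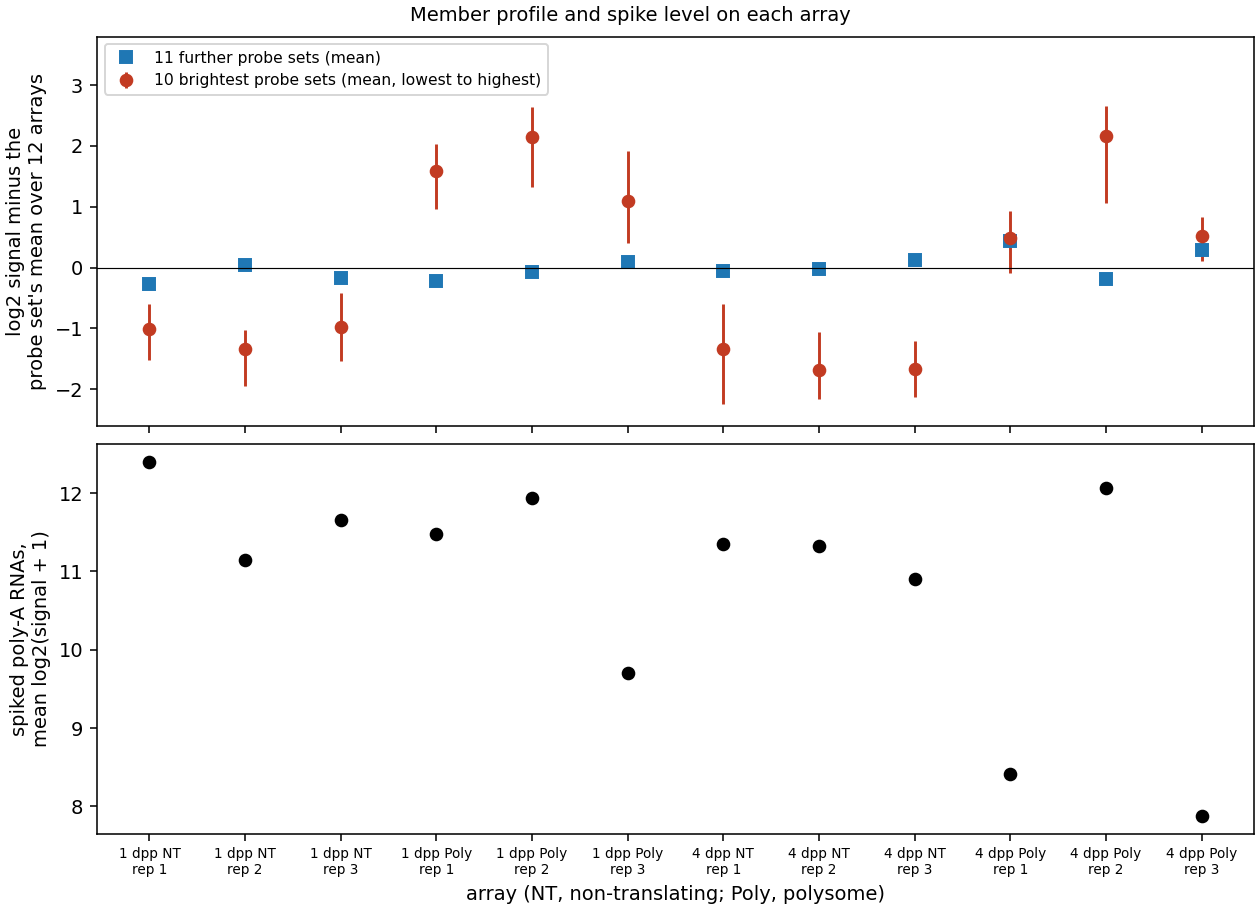
Top, log2 signal of each array minus the probe set's own mean over 12 arrays, as the mean of the 10 brightest probe sets (red, bar from the lowest to the highest) and of the 11 further ones (blue). Bottom, mean log2 signal of the spiked poly-A RNAs. On 4 dpp polysome replicates 1 and 3, where the spikes are at 8.41 and 7.88, the red mean is 0.49 and 0.52, against 2.16 on replicate 2.

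The change with age did not choose the genes and was tested with limma (Benjamini-Hochberg adjustment over all 27022 probe sets). In the polysome pools, 1 of 21 member probe sets was called at an adjusted p under 0.05, against 5% of all probe sets, so the count is near the background. This was the brightest probe set of Galnt2, the O-glycosylation enzyme, which fell by 1.53 ± 0.33 on the log2 scale from 1 to 4 dpp, or 2.90-fold lower (SE, n = 3, limma adjusted p = 0.0272). Its 1 dpp polysome signals, 686.4 to 1099, and 4 dpp signals, 219.4 to 402.2, did not overlap. The same probe set had −0.71 ± 0.33 in the non-translating pools (adjusted p = 1.00), and the other Galnt2 probe sets had −0.92 ± 0.55 and −0.35 ± 0.27 on polysomes (adjusted p = 0.336 and 0.468). The 3′ minus 5′ signal also differed between these arrays, with 3.71 ± 0.70 at 1 dpp and 1.96 ± 0.26 at 4 dpp (SD, n = 3, exact two-sided permutation p = 0.1, the smallest possible), and the spikes averaged 11.04 and 9.45 (exact permutation p = 0.4). In bulk tissue fewer cells that make an mRNA and less mRNA per cell cannot be told apart. For the fixed Sertoli cell markers, the log2 of the summed signal ran from 13.9 to 14.4 on the 1 dpp polysome arrays. On those of 4 dpp it ran from 13.4 to 14.2. For the germ cell markers it ran from 10.4 to 11.4 and from 10.7 to 12.2. Such a sum is weighted to the brightest marker, Clu (mean log2 signal 12.8) for Sertoli cells and Dazl (9.51) for germ cells. The part of RNA quality, spike level and cell makeup in the result was not tested.

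The Galnt2 call held under 20 of 26 alternative settings, with adjusted p from 0.000235 to 0.256. It ended without 1 dpp polysome replicate 1 (adjusted p = 0.111) or 2 (0.131), without 4 dpp polysome replicate 1 (0.122) or 3 (0.0594), without the 3 arrays of low spike level (0.256), and in a fit to the polysome arrays alone (0.174). Over all 27022 probe sets, 1350 were called with all arrays, and 5 and 2 without 1 dpp polysome replicate 1 or 2. With 4 dpp polysome replicate 1 or 3 left out, 13 and 878 were called, and 2 in the fit to the polysome arrays alone. Without 4 dpp polysome replicate 2, limma called 9 of 21 member probe sets. These were the brightest ones of Tanc2 (−1.14), Zbed6 (−1.54), Ubn1 (−1.06), Rest (−1.33), Galnt2 (−1.79) and Garem1 (−1.61), all lower at 4 dpp, and further ones of Nol8 (1.08 and 2.27) and Rest (1.68), all higher, and 5201 of all 27022 were called. Without 1 dpp polysome replicate 3, 3 of 21 were called, Galnt2 (−1.62) and further probe sets of Nol8 (2.17) and Rest (1.73), against 3175 of all 27022.

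With all arrays, the other 9 brightest probe sets had polysome changes from −0.99 to 0.26 with adjusted p from 0.231 to 0.981. The largest positive values belonged to further probe sets. Nol8 1452974_at had 1.72 ± 0.48 (adjusted p = 0.06), Rest 1428227_at 1.19 ± 0.53 (0.199) and Prrc2c 1438663_at 1.07 ± 0.40 (0.131), and none passed. Probe sets of 1 gene thus differed in the sign of their age change as well, as for Rest, whose brightest probe set had −0.69 ± 0.53 (0.464).

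In the non-translating pools limma called 0 of 21 member probe sets, against 0.0037% of all, and 1, Nol8 1428950_s_at (0.85 ± 0.37), had an unadjusted p under 0.05. All 10 brightest probe sets had a value below 0, from −0.82 for Ubn1 to −0.07 for Map1b, with adjusted p of 1.00 each. Over all probe sets tested the median was −0.007. The 10 varied together within groups (median r 0.821), so they are not 10 separate observations. For the change of the ratio from 1 to 4 dpp, tested as an interaction in limma, 0 of 21 were called, again against 0.0037%, and 0 had an unadjusted p under 0.05. The values of the brightest probe sets ran from −0.82 (Galnt2) to 0.46 (Nol8), with a median of −0.16 and adjusted p from 0.851 to 0.995. With an SE of 0.46 to 0.79 on this difference, a change of the ratio of 2-fold could not be told from none.

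**Figure D4:**
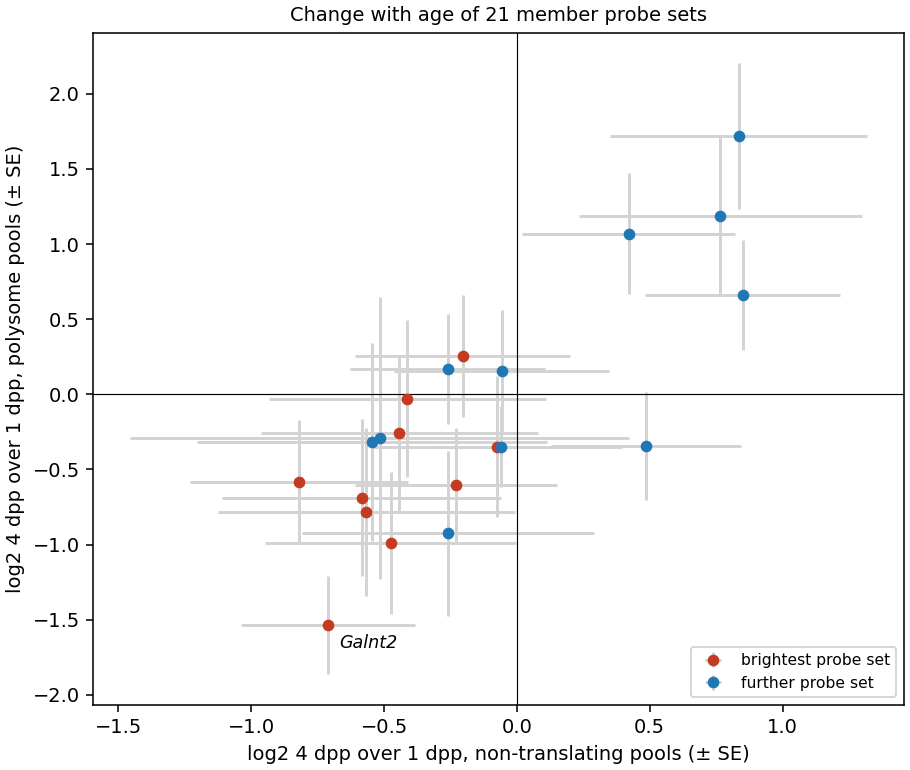
Log2 change from 1 to 4 dpp in the non-translating (horizontal) and polysome (vertical) pools of the 21 member probe sets, with SE bars. Galnt2, at −0.71 and −1.53, is the probe set called in the polysome pools, and the 4 points at the upper right are further probe sets of Nol8, Rest and Prrc2c.

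Relatives and partners of the 10 genes were taken from a fixed list of 42 genes, of which 39 have 77 probe sets above the filter, and none is one of the 10. At 1 dpp limma called 13 of 77 higher on polysomes (16.9%, against 10.5% of all probe sets) and 5 lower (6.49% against 7.12%), with a median of 0.17. At 4 dpp it called 9 higher (11.7% against 7.52%) and 3 lower (3.90% against 3.51%), with a median of 0.14.

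Of 19 probe sets of 8 corepressor genes that act with Rest, 4 were called higher at 1 dpp and 5 at 4 dpp, and the others, among them all those of Hdac1, Hdac2, Rcor2 and Rcor3, were called at neither age. Rcor1 1437545_at had 2.24 and 1.90 (limma adjusted p = 0.00128 and 0.00555), and both calls held under all 25 alternatives that could be fitted. Sin3a 1419102_at had 3.48 and 3.12 (0.0157 and 0.0363). Its call held under 21 of 25 alternatives at 1 dpp, with adjusted p up to 0.0684, and under 15 of 25 at 4 dpp, with adjusted p up to 0.124, and it ended there under quantile normalization (0.0539) and with a pseudocount of 16 (0.0604) or 64 (0.118). The demethylase Kdm1a 1426761_at had 1.49 and 1.93 (0.0296 and 0.0148), with calls that held under 20 and 21 of 25. Its 1 dpp call ended with a pseudocount of 64 (0.0533). Without the 3 arrays of low spike level, where 1 polysome array of 4 dpp remains, its 4 dpp ratio was 1.16. The brighter Kdm1a probe set, 1426762_s_at, had 0.97 and 1.14 (0.0619 and 0.0454). It was called at 4 dpp only, a call that held under 9 of 26. Ehmt2 1460692_at had 1.08 and 1.18 (0.00984 and 0.0106), with calls that held under 26 and 24 of 26. The dimmer Ehmt2 probe set had −0.16 and −0.41 (0.641 and 0.206) and was not called. Here too probe sets of 1 gene parted: the other two of Sin3a had 0.27 and 0.23 at 1 dpp, and the other two of Rcor1 −0.07 and 0.26, none of them called at either age.

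Of 9 probe sets of 5 genes that act with Ubn1 or resemble it, 2 were called higher and 1 lower at 1 dpp, and 2 higher at 4 dpp. Ubn2, the paralog of Ubn1, had one probe set (1437022_at) with 2.65 and 2.03 (adjusted p = 0.00274 and 0.0164), a call that held under 26 of 26 alternatives at 1 dpp and 22 of 26 at 4 dpp. Its 4 dpp call ended under quantile normalization (0.0569) and in a fit to the arrays of that age alone (0.0888). The 2 other Ubn2 probe sets had 0.06 and −0.27 at 1 dpp. The brighter of the Cabin1 probe sets, 1433686_at, had 0.58 and 0.15 (0.0768 and 0.693) and was not called. The dimmer one, 1437794_at, had 1.19 and 1.56 (0.0252 and 0.0119), and its 1 dpp call ended with trimmed mean scaling (0.0707) and a pseudocount of 64 (0.0644). Both probe sets of Hira were called at neither age. The histone chaperone Asf1a was lower at 1 dpp (−1.69, 0.00534), with −0.86 at 4 dpp (0.114).

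Srrm1, the splicing partner of Srrm2, was lower on 1450045_at, with −2.45 and −1.87 (limma adjusted p = 0.00179 and 0.0118), and on 1447447_s_at, with −1.19 and −1.16 (0.00659 and 0.0129). On 1454689_at it was lower at 1 dpp (−1.38, 0.0191), a call that held under 21 of 25 alternatives, with −1.02 at 4 dpp (0.0808). Of its other probe sets, 2 had 1.28 and 1.34 at 1 dpp and were not called. Map1s, a small relative of Map1b, had 1.11 and 1.38 (0.00983 and 0.00651), and Map1a had 0.11 and −0.02 on its brighter probe set and was not called.

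Among 11 probe sets of relatives of Galnt2, 3 were called higher at 1 dpp and 0 at 4 dpp. Galnt18 had 2.13 at 1 dpp (limma adjusted p = 0.00921) and 1.00 at 4 dpp (0.185), and Galnt10 had 1.73 (0.00223) and 0.74 (0.113) on its brighter probe set. Between the ages, on polysomes, 5 of the 77 partner probe sets were called (6.49%, against 5% of all probe sets). Both of Galnt10 were lower at 4 dpp (−1.58 and −1.11, adjusted p = 0.019 and 0.0397), as were 1 each of Rcor1 (−1.45, 0.0304) and Grb2 (−1.06, 0.0347), and 1 of Map1lc3b was higher (1.30, 0.0355). The other 9 probe sets of Galnt2 relatives had values from −0.59 to 1.31 and were not called. These age calls of partners were not followed through the alternative settings. Over all probe sets, the calls in this comparison fell from 1350 to 5 or 2 without 1 dpp polysome replicate 1 or 2. They fell to 13 without 4 dpp polysome replicate 1.

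Prrc2a had 0.99 at 1 dpp (limma adjusted p = 0.0262), a call that ended under quantile normalization (0.106) and trimmed mean scaling (0.0711). Garem2 had 0.68 (0.0355), a call that ended with trimmed mean scaling (0.0682) and with no filter (0.0674). Neither was called at 4 dpp. Prrc2b (0.21 and 0.44 on its brighter probe set) and Tanc1 (−0.89 and −0.48) were called at neither age, nor was the Zbed6 target Igf2 (−1.56 and −1.72, adjusted p = 0.0561 and 0.0522). Zbed3, a relative of Zbed6, was lower on 1453848_s_at, with −1.30 and −1.17 (limma adjusted p = 0.00742 and 0.0196). These calls held under 25 and 21 of 25 alternatives. The brighter Zbed3 probe set had −0.43 and −0.52 and was not called.

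Leaving out 1 array moved these counts. At 1 dpp 11 of 77 were called in all without non-translating replicate 2 or polysome replicate 1, against 18. At 4 dpp 6 were called without non-translating replicate 2 or 3, 7 without polysome replicate 3 and 19 without polysome replicate 2, against 12. In a fit to the 4 dpp arrays alone 1 of 77 was called. The counts over all probe sets under these settings are not given here, so the shifts are not a result about the partners. Of the calls at 1 dpp, that of Sin3a ended without non-translating replicate 2 or 3 or polysome replicate 1 or 2, as did that of Cabin1. That of Kdm1a 1426761_at ended without non-translating replicate 1 or 2 or polysome replicate 1 or 3, and that of Prrc2a without any one of the 1 dpp arrays except polysome replicate 3. Garem2 was no longer called without any one of the 6 arrays of 1 dpp, or without 4 dpp non-translating replicate 2 or 3. Of the calls at 4 dpp, that of Sin3a ended without any one non-translating array, without polysome replicate 3, or without 1 dpp non-translating replicate 2 or 3. That of Kdm1a 1426761_at ended without non-translating or polysome replicate 3, that of Ubn2 without non-translating replicate 2 or 3, and that of Cabin1 without non-translating replicate 2.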

How the data were processed

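Probe set signal intensities of 12 Affymetrix arrays, on a linear scale as the authors deposited them, were used. The submitters' processing notes name MAS5, its version and the scaling between arrays are not given in the sources used here, and raw array files were not used. Every array carries the same nominal amount of RNA (5 μg), so a ratio is relative to the other mRNAs, not the fraction of an mRNA that sits on polysomes.

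Of 45101 probe sets 64 are controls, and of the other 45037, 34945 have 1 gene symbol in the platform annotation. Signals were transformed to log2(signal + 1), which understates changes of dim probe sets, and the 27022 probe sets at or above the 40th percentile of mean log2 signal (4.12) were fitted in 1 model with 4 groups (lmFit and trended eBayes of limma 3.58.1, under R 4.3.3), with Benjamini-Hochberg adjustment in each comparison. The script was tested on simulated data. All p-values are two-sided, and SE is that of the fit. The genes, lists and tests were chosen with earlier results of these data known. Named are all members, the partner genes called or fixed in advance (at most 10, by size, with the fixed ones in any case), and the 5 closest profiles. Igf2, Grb2, Map1lc3b, Hira, Hdac1, Hdac2, Rcor2, Rcor3, Ehmt2 and Zbed3 were added after their values were seen. Median signal (22.4 to 26.1) was alike on all arrays, and the number of arrays limits the precision. The trimmed mean signal, with 2% left out at each end, ran from 108 to 148. It was highest on the 3 polysome arrays of low spike level (137, 144 and 148). The planned description by protein length was not run. Same-numbered samples were not paired (see the closing section).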

Additional observations from a re-analysis of the deposited data

How the results depend on the processing

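Ratios of the 10 brightest probe sets were recomputed under 26 alternatives, 520 values in all, and 0 fell below 1 (from 1.32 to 4.47). The genes were chosen on these ratios, on the same arrays, so this count is a description and no separate support. With a pseudocount of 64 the median ratio was 2.14 at 1 dpp and 1.82 at 4 dpp. At 4 dpp it was 3.71 without the 3 arrays of low spike level, an alternative added after the data were seen. Without single arrays the medians ran from 2.38 to 2.98 and from 2.02 to 2.92. Genes whose probe sets disagreed in sign at either age numbered 5, 8 with no filter, 7 where a gap of over 1 counts, and from 3 (without 1 dpp non-translating replicate 2) to 6 without single arrays.

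Member probe sets called between ages on polysomes numbered 1 with all arrays, 2 with trimmed mean scaling, 3 with low spike level as a block, 0 in fits to the groups compared and without the low-spike arrays, and from 0 to 9 without single arrays. With the replicate block, 2 were called (Galnt2 and Nol8 1452974_at). Of all 27022 probe sets, 1350 were called with all arrays, 1975 with trimmed mean scaling, 2516 with low spike level as a block and 1332 with the replicate block. Deviations of same-numbered arrays (replicates 1, 2 and 3) had r of −0.331, 0.779 and 0.743 between the ages on polysomes, 0.523, 0.386 and −0.0047 between the ages in the non-translating pools, 0.567, −0.576 and −0.03 between the pools at 1 dpp and −0.162, −0.227 and 0.349 at 4 dpp. Since each comparison holds a value below 0.1, the numbers were not taken to pair the samples. With 3 arrays per group these values cannot exclude that same-numbered pools of 1 age belong together. The replicate block gives each number 1 effect across both ages, and a fit with pools paired within each age was not run. Array weights (gene-by-gene method) called 12, 10 and 4 of 21 members for the age change on polysomes, in the non-translating pools and of the ratio. Of all 27022 probe sets, they called 13591, 4956 and 6191. The cause was not tested. The planned description by protein length was not run.

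Partner probe sets called were 18 at 1 dpp and 12 at 4 dpp, 39 and 30 with array weights, and 10 and 5 with 1 probe set per gene (39 tested). At 4 dpp 20 were called with the low-spike block and 1 in the fit to that age alone. Without single arrays the counts ran from 11 to 23 at 1 dpp and from 6 to 19 at 4 dpp. The matching counts over all probe sets are not given here, so these shifts say nothing particular to the partners. Ratios at 4 dpp that were not called changed sign for Grb2 (−0.13 under quantile normalization, −0.078 with trimmed mean scaling, −0.064 with array weights, and −0.094 to 0.166 without single arrays, below 0 without 4 dpp non-translating replicate 1 or polysome replicate 2), Prrc2a (−0.038 under quantile normalization, and −0.027, without 4 dpp non-translating replicate 3, to 0.411 without single arrays), Galnt10 1418194_at (−0.016 with the low-spike block, −0.19 without those arrays) and Galnt18 (−0.27 without those arrays).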
